A study of Mus musculus with 10 samples.

Results

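Brd2, Brd3 and Brdt encode BET proteins, named for their bromodomains and extra-terminal domain, and XBP-1 peaks at these 3 of 21900 protein-coding genes are described here in mouse liver. The genes were chosen by measured values: Brd2 because its peak stood at the top of the peak lists, and Brd3 and Brdt as its relatives. All peaks were taken whose summit lay inside the gene span or within 5 kb of it. Everything given here on rank, height and calls at these genes is therefore a description and was not tested.

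BET proteins bind acetylated lysines of histone tails through tandem bromodomains and help RNA polymerase II into productive elongation. Brd2 and Brd3 are expressed in many tissues, and Brd2 lies within the major histocompatibility complex. Brdt is known for its role in the chromatin remodelling of spermatids in the testis. XBP-1 is the transcription factor of the IRE1 arm of the unfolded protein response. The nuclease encoded by Ern1 (IRE1) removes an intron from Xbp1 mRNA, and the spliced form, called Xbp-1s, drives genes of protein folding and secretion in the endoplasmic reticulum (ER).

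Chromatin was immunoprecipitated with an antibody to Xbp-1s from livers of C57BL/6J mice in 4 groups of 2 libraries each. These were wild-type mice that had been fasted (Fasted), wild-type mice that had been fed (Fed), mice with a liver-specific knockout of Ern1 (Ern1-LKO) and wild-type mice set against them (WT). The labels used here give no length of the fast, no feeding state for Ern1-LKO and WT mice, no age, no driver of the deletion and no statement that libraries came from separate animals. Fasted and Fed lists were called against 1 input library and Ern1-LKO and WT lists against the other, so each comparison stayed within its own input. Kept tags ranged from 4340956 in Ern1-LKO replicate 2 to 17399899 in Fed replicate 1, and the lists from 698 peaks in Ern1-LKO replicate 1 and 6258 in WT replicate 1 to 82975 in Fed replicate 1. The peak lists hold no measure of the Ern1 deletion and no expression of liver markers, so neither label could be checked here.

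The sequences shown first are those at the starts of the 3 genes, because the strongest peak of each gene lay at or near a start. They run from 250 bases before to 30 bases after the start, 5′ to 3′ along the gene, and come from RefSeq (build GRCm38.p6, the assembly of mm10). In Brd2, capitals mark CGTGG, which is CCACG on the other strand, a box shared by the known ER stress elements. In Brd3 and Brdt, capitals mark the stretch from the lowest to the highest of the summits that fell inside the window. The starts are those with a promoter window in the RefSeq table, 3 for Brd2 and 1 each for Brd3 and Brdt, and the annotated spans of Brd2 and Brd3 reach farther upstream, to 34122814 and 27507657. The Brd2 window shown is that of the most upstream of its 3 (chr17:34122578-34122857, minus strand), and those of Brd3 and Brdt are chr2:27475369-27475648 (minus strand) and chr5:107330944-107331223 (plus strand).
Brd2: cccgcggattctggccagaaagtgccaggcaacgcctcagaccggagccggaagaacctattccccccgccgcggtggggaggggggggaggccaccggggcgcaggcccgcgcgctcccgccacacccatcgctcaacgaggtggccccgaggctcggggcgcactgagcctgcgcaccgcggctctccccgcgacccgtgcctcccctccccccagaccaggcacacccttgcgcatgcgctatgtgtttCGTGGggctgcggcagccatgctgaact
Brd3: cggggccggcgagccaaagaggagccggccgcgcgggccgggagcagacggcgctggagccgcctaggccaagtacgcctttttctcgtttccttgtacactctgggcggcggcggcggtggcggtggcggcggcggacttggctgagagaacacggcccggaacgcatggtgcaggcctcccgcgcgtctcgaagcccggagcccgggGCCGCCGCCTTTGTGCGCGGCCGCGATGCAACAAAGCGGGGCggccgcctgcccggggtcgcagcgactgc
Brdt: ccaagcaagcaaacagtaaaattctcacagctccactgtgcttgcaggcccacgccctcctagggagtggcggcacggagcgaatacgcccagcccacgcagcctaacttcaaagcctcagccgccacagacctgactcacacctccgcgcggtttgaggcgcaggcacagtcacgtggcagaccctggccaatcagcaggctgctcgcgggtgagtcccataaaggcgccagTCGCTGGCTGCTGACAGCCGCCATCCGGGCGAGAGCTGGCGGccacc
The strongest Brd2 peak covered all 280 bases of its window in 8 of 8 libraries, although no summit fell inside it. The strongest Brd3 peak covered its window in 5 libraries, and that of Brdt in 1.

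Brd2 (gene ID 14312, chromosome 17, 34112019 to 34122814) carried a peak in all 8 libraries at the same place. Its summits lay between 34122313 and 34122359, a spread of 46 bp, and 248 to 294 bp inside the gene from the upstream start at 34122607. Of all genes, 2.63% (577 of 21900) had a peak in their window in every library. Among the 277 genes with a peak in all libraries whose strongest summit lay within 1000 bp of an annotated start in each of them, the median summit stood 49.0 bp downstream of the start, with quartiles of -84.5 and 211 bp. The Brd2 median of 273 bp was equalled or passed by 49 of these genes (17.7%). The bases under the Brd2 summit lie outside the sequence used here.

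The height of a peak is its pileup, the number of extended tags over the summit. The Brd2 peak had pileups of 307 and 263 in Fasted and 383 and 369 in Fed libraries. It had 169 and 256 in Ern1-LKO and 289 and 339 in WT libraries. As unscaled tags, the groups did not overlap in either comparison, with Fasted below Fed and Ern1-LKO below WT. Kept tags differed between libraries, at 8377833 and 9620502 in Fasted and 17399899 and 7765561 in Fed. They were 11995890 and 4340956 in Ern1-LKO and 14072378 and 9176542 in WT libraries. The order therefore holds for unscaled tags only and was not tested at equal numbers of kept tags. The same order of pileups, on the strongest peak of each gene, held for 9.63% of the 9217 genes with a peak in all 4 Fasted and Fed libraries and for 44.6% of the 597 genes with a peak in all 4 Ern1-LKO and WT libraries. The fold enrichment of the same peak over the input, a value of each library's own call, did not keep that order. It was 77.8 and 60.5 in Fasted and 52.2 and 92.8 in Fed libraries. In Ern1-LKO libraries it was 31.7 and 103.2, and in WT libraries 37.1 and 78.4. By fold the groups overlapped in both comparisons. Pileup and fold belong to each library's own call and were not tested between libraries, and 2 libraries against 2 could not have given an exact permutation p below 0.33.

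The pileup at Brd2 was also bounded by the processing. The authors kept 1 tag per position, which MACS counts on each strand, so a summit can hold at most 2 tags per base of fragment length, which was 344 to 430 over the 8 libraries. The highest pileup of any peak reached 99.3% of that bound in Fasted replicate 1 and 99.0% in Fed replicate 1. The Brd2 peak stood at 76.4% and 65.4% of the bound in Fasted and at 93.9% and 85.8% in Fed libraries. In Ern1-LKO libraries it stood at 49.1% and 69.9%, and in WT libraries at 83.0% and 93.1%. The Brd2 summits of Fed replicate 1 and WT replicate 2 thus stood closest to the limit past which further tags are not counted, and the part of this limit in the differences between groups was not tested.

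**Figure D1:**
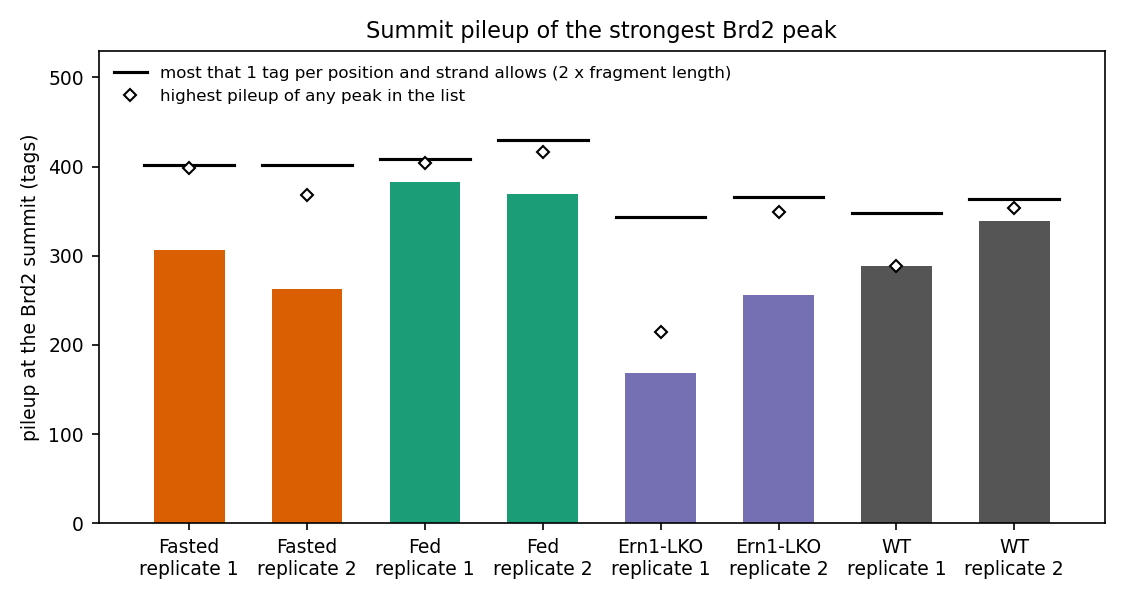
Bars give the pileup (tags) at the summit of the strongest Brd2 peak in each of the 8 libraries, black lines the largest pileup that 1 tag per position and strand allows, and open diamonds the highest pileup of any peak in that list. The Fasted bars (307 and 263) lie below the Fed bars (383 and 369), which come close to the bound, and the Ern1-LKO bars (169 and 256) lie below the WT bars (289 and 339). Pileups are unscaled tags, and the libraries differ in kept tags.

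By pileup, the Brd2 peak ranked 7 and 7 in Fasted and 6 and 3 in Fed libraries. It ranked 6 and 4 in Ern1-LKO and 1 and 4 in WT libraries, for a median of 5. Over the 8 libraries, 30 peaks stood higher, and 19 of them lay in no window of a protein-coding gene. Of those 19, 13 were on chromosome 17 away from Brd2, and 18 had a fold enrichment below 10, against 31.7 to 103.2 at Brd2. Counted among peaks in gene windows, a choice made after seeing the data, Brd2 ranked 5 and 2 in Fasted and 5 and 2 in Fed libraries. It ranked 1 and 1 in Ern1-LKO and 1 and 2 in WT libraries. No gene-window peak stood higher than Brd2 in either Ern1-LKO library, nor in WT replicate 1. By fold enrichment over all peaks the ranks were 3 and 2 in Fasted, 7 and 3 in Fed, 1 and 1 in Ern1-LKO and 15 and 6 in WT libraries. The −log10 q of the peak ran from 192 in Ern1-LKO replicate 1 to 607 in Fed replicate 2. In the authors' pooled lists, 1 per group, Brd2 ranked 5 in Fasted, 8 in Fed, 3 in Ern1-LKO and 4 in WT. Its pileups there were 352 in Fasted and 403 in Fed, and 284 in Ern1-LKO and 247.1 in WT. Pooled WT held more kept tags than its input and, per the file headers, the larger dataset was scaled towards the smaller, so that the last pair is not on 1 scale and its order cannot be read against that of the single libraries.

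H2-DMa, whose strongest peak is the Brd2 peak itself in all 8 libraries, was passed over in a ranking of the genes most like Brd2. These were the genes whose strongest peak took the most similar place in the 8 lists, measured as the mean absolute difference in log10 of rank over list length. They were Tram1 (0.267), which assists translocation into the ER, Pdia3 (0.298) and its neighbour Catsper2, which share 1 peak, Txndc5 (0.46) and Dnajc3 (0.471), an ER co-chaperone. Pdia3 and Txndc5 belong to the protein disulfide isomerase family. When 1 library was left out at a time, 3 to 5 of these 5 genes were named again, though each run kept all other lists. Since Brd2 was chosen from the top of these lists, genes close to it by this measure stand near the top too. With Fasted replicate 2 left out, Hsp90b1 and Ttc41, which share 1 peak, took the places of Txndc5 and Dnajc3. With Ern1-LKO replicate 2 left out, Hsp90b1 took that of Dnajc3. The peak of Hsp90b1 and Ttc41 had a higher pileup than Brd2 in Fasted replicate 1 and in both Fed libraries. Among peaks in gene windows, Brd2 ranked from 1 to 5, with a median of 2. Brd2 was chosen for its place at the top of these lists, so its ranks were bound to lie near 1. Tram1 ranged from 1 to 10 and Pdia3 from 1 to 11, both with a median of 3.5. Dnajc3 ranged from 3 to 18 and Txndc5 from 4 to 28. Hspa5, the main ER chaperone, ranged from 1 to 168, and Xbp1 itself from 4 to 69. Sdf2l1, a small ER chaperone, stood lowest of the 16 ER genes, from 51 to 167.

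**Figure D2:**
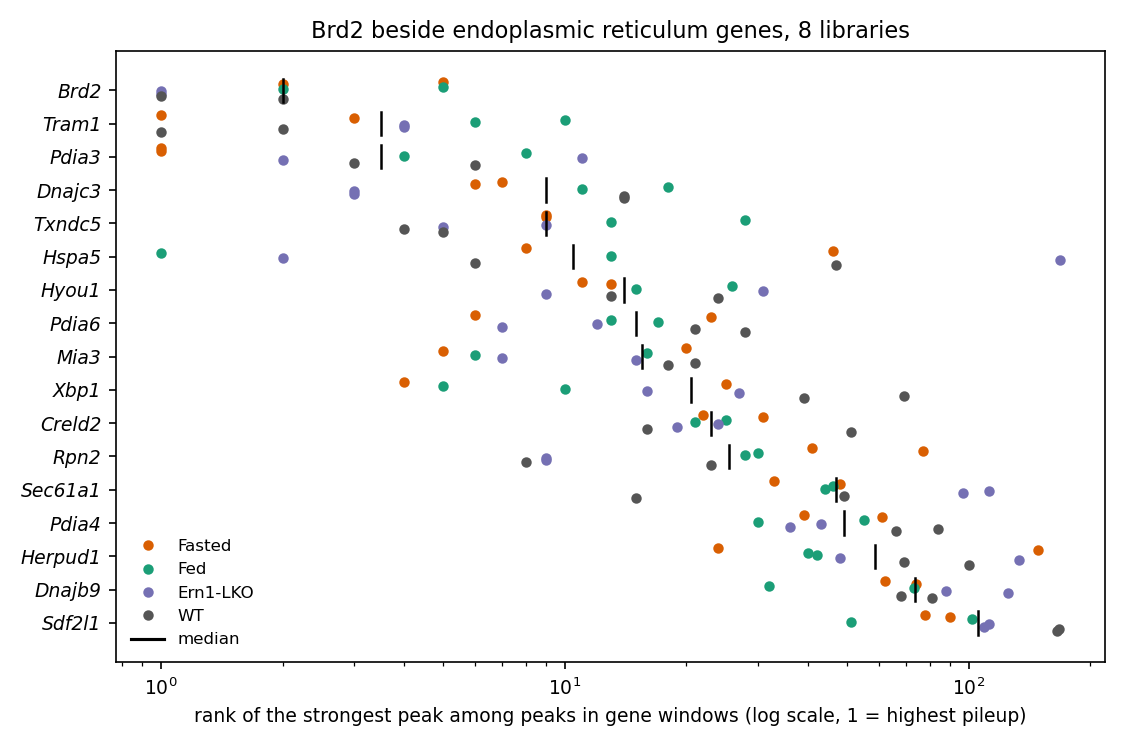
Each point is 1 of 8 libraries and gives the rank (log axis, 1 is the highest pileup) of the gene's strongest peak among peaks in gene windows, with the median as a black bar, for Brd2 on top and 16 ER genes below it in order of their median. The Brd2 points span ranks 1 to 5, and those of Hspa5, the ER gene with the widest span, 1 to 168. Brd2 was chosen for its place at the top of the lists.

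The strongest peak does not belong to Brd2 alone by position. H2-DMa, which encodes a chain of the molecule that loads peptides on class II histocompatibility proteins, has a RefSeq span of 34119693 to 34139101 that overlaps Brd2 on the opposite strand. One of its annotated starts, at 34122832, lies 225 bp from the upstream Brd2 start and points away from it, and the other is at 34125518. The window of H2-DMa therefore held 27 of the 29 Brd2 peaks, among them the strongest in all 8 libraries. A peak list has no strand and assigns a peak to neither gene. No summit of the 8 libraries lay outside the Brd2 span and within 5 kb of it, and the nearest summit beyond the window stood 6407 bp away, with a pileup of 20 in Fasted replicate 1.

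Brd2 also carried weaker peaks inside the gene, and the 29 peaks of the 8 libraries fell into 8 sites when summits up to 250 bp apart were joined. Of these, 1 site, the strongest, was called in every library. Summits around 34120981 (between the middle and the downstream start) had pileups of 59 and 23 in Fasted libraries and 53 in Fed replicate 2, and of 49 in Ern1-LKO replicate 2 and 106 in WT replicate 2. That is 19.2% and 8.7% of the strongest summit of the same library for Fasted and 14.4% for Fed replicate 2, against 19.1% for Ern1-LKO replicate 2 and 31.3% for WT replicate 2. The next site, around 34120354 and upstream of the start at 34119900, was called in the same 5 libraries, with pileups of 23 to 63. Sites around 34119476 and 34119031, beyond that start, had summits in 4 and 3 libraries. Over all libraries the 21 internal peaks reached 4.4% to 31.3% of the strongest summit.

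Which internal sites appear depends on how the peak caller joined them. In Fed replicate 1, 1 peak of 4787 bp (34118261 to 34123047) spanned all 3 starts and has only the strongest summit, and no peak of that list was longer. In the other 7 libraries the strongest peak was 788 to 1770 bp long, against a median of 232 to 302 bp for all peaks of those lists. With peaks that overlap by at least 1 bp joined in place of nearby summits, 3 Brd2 sites were left. The sites in Ern1-LKO replicate 1 and WT replicate 1 were few, with 1 and 2 peaks, and these are the libraries with the shortest lists. The most distant sites, around 34116920 in Fed replicate 1 and 34112555 near the 3′ end in Fed replicate 1 and WT replicate 2, had pileups of 15 to 19.

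**Figure D3:**
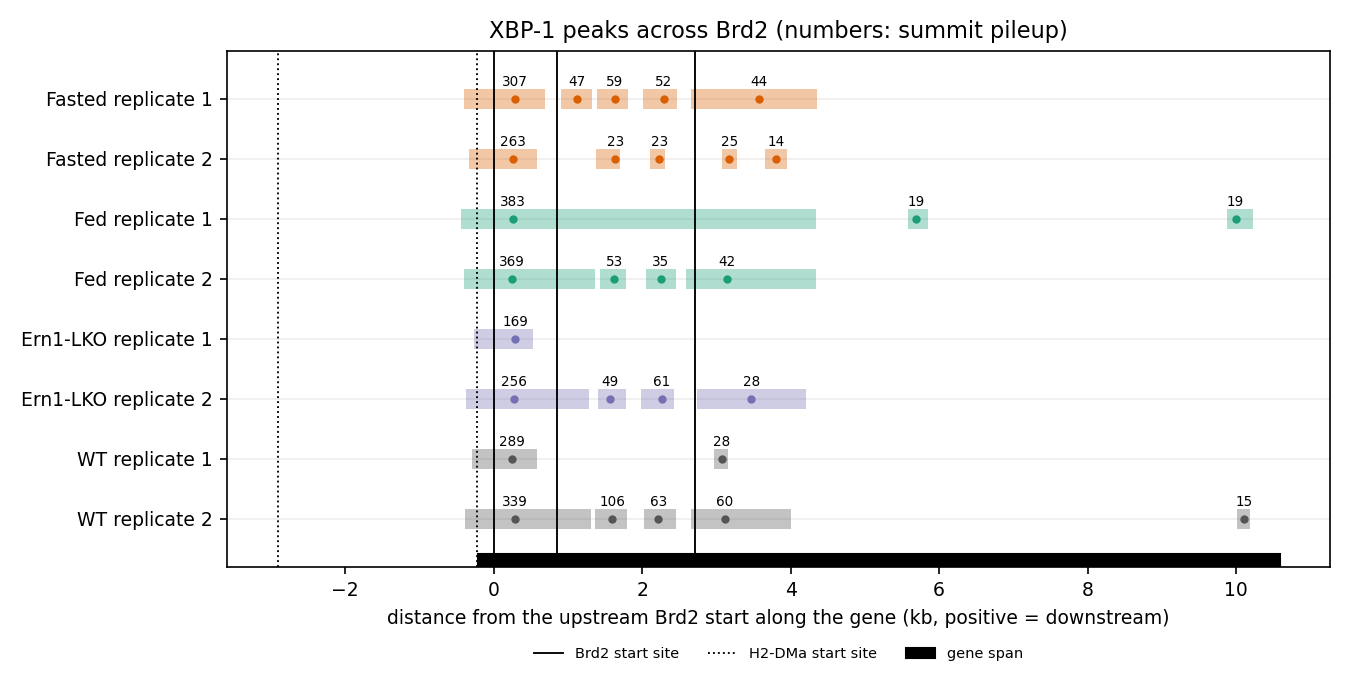
Peaks at Brd2 in each of the 8 libraries (rows) against the distance from the upstream start along the gene (kb), with bars for called intervals, points for summits and the summit pileup above each point. Solid lines mark the 3 annotated Brd2 starts and dotted lines those of H2-DMa. The strongest summit, 169 to 383 tags, stands just downstream of the upstream start in every row, and the long bar of Fed replicate 1 joins sites that are separate elsewhere.

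Brd3 (gene ID 67382, chromosome 2, 27445576 to 27507657) carried a peak in 6 of 8 libraries, and in none was it near the top of the list. A peak in the window was found in 73% of all genes in Fasted replicate 1, 43.5% in Fasted replicate 2, 76.1% in Fed replicate 1 and 71.2% in Fed replicate 2. The corresponding shares were 3.58% in Ern1-LKO replicate 1, 62.4% in Ern1-LKO replicate 2, 19.6% in WT replicate 1 and 65% in WT replicate 2. Brd3 lacked a peak in the libraries with the lowest shares, Ern1-LKO replicate 1 and WT replicate 1.

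The strongest Brd3 peak had pileups of 54 and 18 in Fasted and 55 and 38 in Fed libraries. It had 25 in Ern1-LKO replicate 2 and 38 in WT replicate 2. The Fasted and Fed libraries overlapped, and the knockout comparison had 1 library on each side. Its rank was 2585 and 10566 in Fasted and 1962 and 3065 in Fed libraries, and 5761 in Ern1-LKO replicate 2 and 5260 in WT replicate 2. That place ranged from 2.36% of the list in Fed replicate 1 to 54.9% in Fasted replicate 2. At Brd3, the fold enrichment ran from 5.77 to 18.4, below the lowest value of the strongest Brd2 peak, 31.7.

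In 5 of the 6 libraries the strongest Brd3 summit lay at the annotated start (27475398), from 41 bp before it to the start itself, in the capitals of the Brd3 sequence. In WT replicate 2 it lay 427 bp before the start, where Fasted replicate 2 had a separate peak as well, and the called interval still covered the start. Another recurrent site lay inside the gene, about 21103 bp downstream of the start, with pileups of 7 to 21 in 5 libraries. A site with pileups of 18 to 43 in 4 libraries, at 27442516 to 27442605, lay outside Brd3 and just past the start of Brd3os (27442436), a gene on the opposite strand. The window of Brd3os held 7 of the 26 peaks counted at Brd3. No Brd3 site was called in all 8 libraries, and 8 of its 13 sites had a summit in 1 library. The farthest summit counted outside the gene stood 3434 bp from it, and the nearest summit beyond the window 6698 bp away, with a pileup of 12 in Fed replicate 1.

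**Figure D4:**
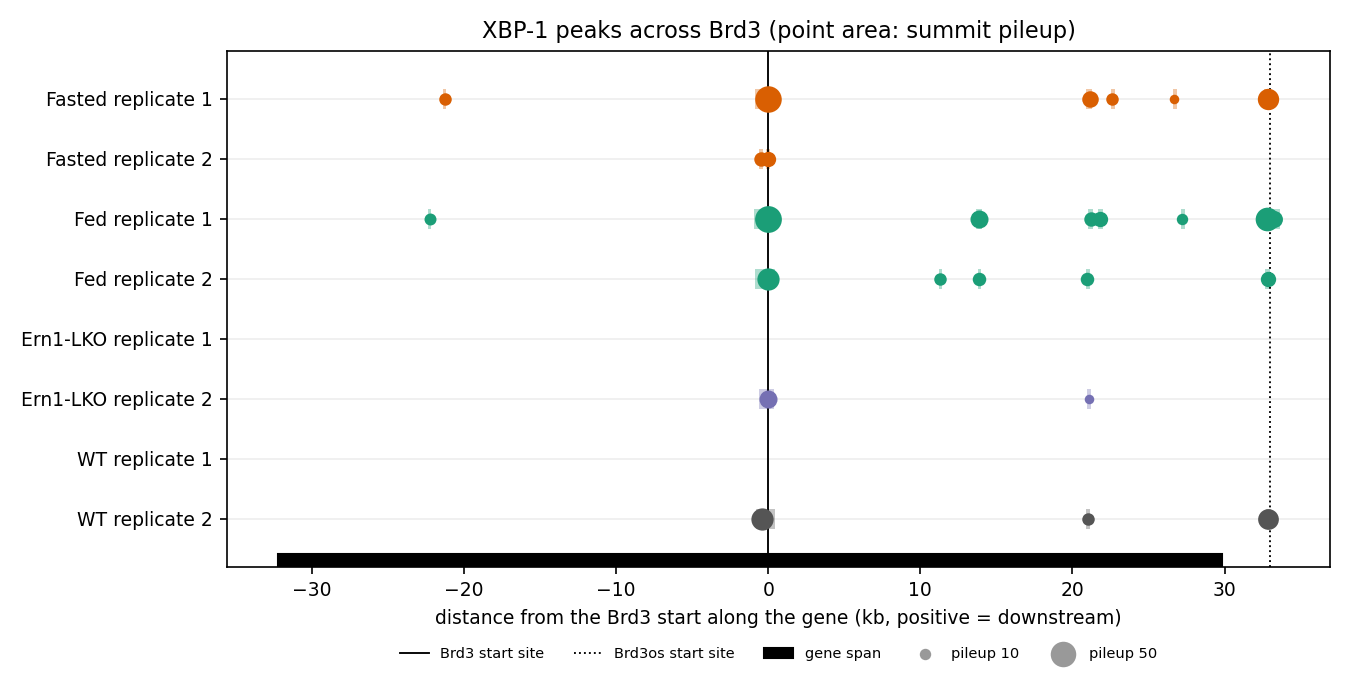
Peaks at Brd3 in each of the 8 libraries (rows) against the distance from its annotated start along the gene (kb), with bars for called intervals and points at summits whose area is proportional to pileup. The strongest peak of 6 rows lies at or just before the start, with 18 to 55 tags, and Ern1-LKO replicate 1 and WT replicate 1 have none in the window.

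Brdt (gene ID 114642, chromosome 5, 107331116 to 107387061) carried 1 weak peak in 3 of 8 libraries. Its pileup was 20 in Fasted replicate 1, 15 in Fed replicate 2 and 12 in WT replicate 2, with folds of 8.47, 7.36 and 4.87. These peaks ranked 17051, 20434 and 22467 in their lists, at 31.6%, 43.1% and 74.1% of the list. The summits lay within 41 bp of each other, from 17 bp before to 24 bp after the start at 107331194. The nearest summit outside the window stood 16408 bp from the gene. No group had a Brdt peak in both of its libraries. Fed replicate 1 had none although its list was the longest, and neither did Fasted replicate 2, either Ern1-LKO library or WT replicate 1. The peak in WT replicate 2 did not pass a −log10 q of 5, and a −log10 q of 10 left 1 library, Fasted replicate 1.

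**Figure D5:**
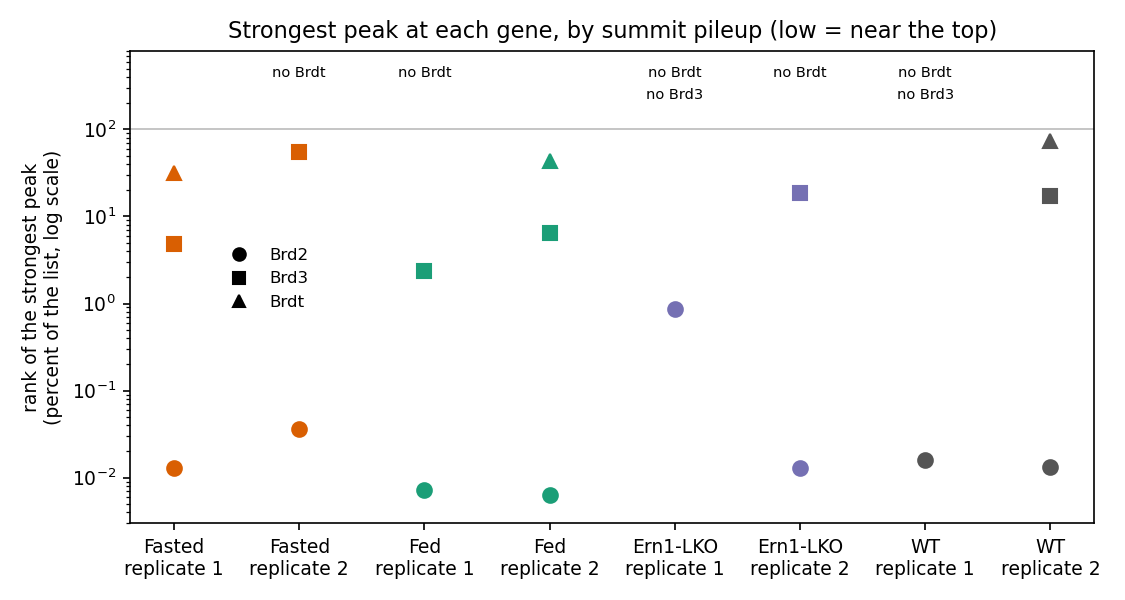
The rank of the strongest peak by pileup at Brd2 (circles), Brd3 (squares) and Brdt (triangles), as a percent of each list on a log axis, for the 8 libraries. Brd2 lies between 0.0063% and 0.0364% in 7 libraries and at 0.86% in Ern1-LKO replicate 1, whose list holds 698 peaks, while Brd3 lies at 2.36% or more and Brdt at 31.6% or more where they have a peak.

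Across the conditions, none of the 3 genes had a peak in both libraries of 1 group and neither library of its counterpart. Of all genes, 0.0731% had one in both Fasted and neither Fed library and 1.2% in both Fed and neither Fasted library. For the knockout comparison the shares were 0% (0 of 21900 genes) for a peak in the 2 Ern1-LKO libraries without one in WT, and 0.895% for the 2 WT libraries without one in Ern1-LKO. The order of the strongest peaks, Brd2 above Brd3 above Brdt, was the same in each library where the genes could be compared. Brd2 was chosen for its place at the top of the lists, so its place above Brd3 and Brdt follows from that choice. The pileups of Brd2 in all libraries, 169 to 383, lay above every Brd3 value, 18 to 55, and in the 3 libraries with a Brdt peak that peak was the lowest.

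Motifs were searched in the windows from 250 bases before to 50 after each of 32851 annotated starts, on both strands. The ER stress element (ERSE), CCAAT and CCACG separated by 9 bases, was found in 0.12% of all windows and in 1.72% of the 640 windows of genes with a peak in all 8 libraries. It was found at 4 of the 13 ER genes with a window. Neither this element nor ERSE-II (ATTGG, 1 base, CCACG), nor the cores TGACGTGG and TGACGTGA of the unfolded protein response element, was in the 3 windows of Brd2 or in those of Brd3 and Brdt. The strongest Brd2 summits lay 248 to 294 bp after the upstream start, outside all 3 windows. The bases under them were therefore not searched, and whether a motif lies there is not known. The cores were in 0.68% and 0.44% of all windows. The box CCACG, present in 32.77% of all windows and 52.34% of those of genes with a peak in all libraries, stood once in each Brd2 window, 2 to 6 bp after the upstream start, at positions -48 to -44 from the middle start and -173 to -169 from the downstream start. Brdt had it at 3 places, of which 1 overlaps the E-box CACGTG found at positions -78 to -73 from its start. The E-box was in 7.15% of all windows. Brd3 had none of the motifs searched, and the cyclic AMP element TGACGTCA, in 1.79% of all windows, was at none of the 3 genes.

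Other bromodomain genes had a peak in a median of 7 libraries, against 5 for all genes, 6 for Brd3 and 3 for Brdt. None had a median rank near that of Brd2, which follows from the choice of Brd2 for its place at the top of these lists. Of 32 such genes, 10 had a peak in all 8 libraries (31.2%, against 2.63% of all genes). Their median length is 84.7 kb, against 17.1 kb for all genes and 32.4 kb for the genes with a peak in all libraries, and a longer gene has a wider window. Without WT replicate 1 and Ern1-LKO replicate 1 the count was 27 of 32, against 8635 of 21900 genes. The highest were Brwd1, with a median rank of 366, the histone methyltransferase gene Kmt2a (561.5) and the gene of the acetyltransferase p300, Ep300 (740), followed by Baz2a (793). Kmt2a ranked 23 and 25 in Ern1-LKO and 324 and 143 in WT libraries, and 1197 and 799 in Fasted and 3853 and 3417 in Fed libraries. Each rank belongs to its own library's list and was not tested between libraries, so these ranks do not measure a change.

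Of 24 genes of BET partners and of transcription elongation, 2 had a peak in all 8 libraries (8.3%, against 2.63% of all genes). Their median length is 32.3 kb, against 17.1 kb for all genes. Without WT replicate 1 and Ern1-LKO replicate 1 the count was 15 of 24, against 8635 of 21900 genes. The highest by median rank over the libraries with a peak were Nsd3 (78.5), a histone methyltransferase gene, Nelfe (186) and Nelfa (375), which encode subunits of the negative elongation factor, and Aff4 (610.5), a scaffold of the super elongation complex. Nsd3 and Aff4 had a peak in all 8 libraries, and Nelfe and Nelfa in all but Ern1-LKO replicate 1. Nsd3 ranked 73 and 2016 in Fasted and 84 and 65 in Fed libraries, and 118 and 202 in Ern1-LKO and 34 and 56 in WT libraries.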

How the data were processed

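Deposited by the authors are 12 peak lists, of which 8 come from single immunoprecipitated libraries and 4 from the pooled pair of a group. The submitters' processing notes name bcl2fastq, FastQC 0.11.3, Bowtie2 2.2.5 and build mm10. Per the file headers, peaks were called with MACS 2.1.1.20160309 (the notes name MACS2 2.2.1) against an input library, keeping 1 tag per position, at a q cutoff of 0.05 and with broad calling off. Per the file headers, each peak has a pileup signal at its summit, its fold ratio to the local background, and p and q as −log10 values, all computed by the authors. Pileups of the 8 libraries are unscaled tags, since each input was the larger library.

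Summits were matched to RefSeq spans of 21900 protein-coding genes (GRCm38.p6) extended by 5 kb, and peaks were ranked by pileup within each list with Python 3.11.15 and pandas 2.3.3. Summits up to 250 bp apart made 1 site. Start sites are those with a RefSeq promoter window. The members and lists were chosen with earlier results of these data known. The genes named are the 3 members, the 5 most like Brd2, genes sharing their peaks, and up to 4 per gene list by median rank. Hsp90b1, Ttc41, Hspa5, Xbp1 and Sdf2l1 were singled out after their values were seen. Alternatives changed the window, the peak threshold, the list length, the ranking measure, the joining of sites and the libraries. On simulated data, 2000 of 2000 planted peaks were assigned correctly.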

Additional observations from a re-analysis of the deposited data

Results flagged for a closer look

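The pooled lists held peaks that neither library of their group had called at the same summit. At Brd2, the pooled Fed list had 1 such peak (fold enrichment 3.21, summit 34125587), next to the H2-DMa start. At Brd3, the pooled Fasted list had 1 (5.57, summit 27487147) and the pooled Fed list 2 (3.35 at 27446892 and 3.04 at 27470413), all inside the gene. At Brdt, the pooled Fed list had a peak inside the gene (4.45, summit 107359908) with no counterpart in either Fed library. These values come from data outside the per-library comparison and were not tested.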

How the results depend on the processing

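The strongest Brd2 site was called in every library, or every pooled list, under each alternative run. Its median rank of 5 was 3 with a fold enrichment of at least 5, 3 by fold, 2 by −log10 q, 2 among peaks in gene windows and 4 to 6 when 1 library was left out. Brd2 sites numbered 3 with 698 top peaks per list, with peaks joined by 1 bp and with peaks joined by 50% of the shorter. With 698 top peaks, Brd3 and Brdt had peaks in 0% of libraries and 0 sites. Brd3 sites numbered 4 at a −log10 q of at least 10 and 5 at a fold of at least 5, and 1 site was in all 4 pooled lists. The median Brdt rank of 20434 was 18648.5 and 16559 at a −log10 q of at least 5 and 10, 18039.5 at a fold of at least 5, 17094 by fold, 19147 by −log10 q, 23896.5 with pooled lists, 17616 among peaks in gene windows and 18742.5 to 21450.5 leaving out 1 library. Brdt had a peak in 12.5% of libraries at a −log10 q of at least 10 and 2 sites in the pooled lists. Genes with a peak in all libraries numbered 323 with gene spans alone, 158 at a −log10 q of at least 10, 292 at a fold of at least 5, 141 with 698 top peaks, 8964 with pooled lists, 8635 without both shortest lists, and 577 to 3043 leaving out 1 library, the highest without Ern1-LKO replicate 1. In the same order of settings, other bromodomain genes numbered 1 at a −log10 q of at least 10 (6 at 5), 3, 0, 28, 27 and 10 to 17, and BET partner genes 0 with gene spans alone, 0 at a −log10 q of at least 10 (1 at 5), 0, 0, 15, 15 and 2 to 7, with 4 without WT replicate 1. Of 271 values under alternatives, 222 counted as unchanged. For the ranks of Brd2 and Brd3 this meant a shift below the replicate spread, 1.66 and 4028 ranks, and the latter is a wide margin. The Brdt rank, which had no such spread, and results reported as 0 had to stay identical. Other results had to stay within 1.5 times the value reported. The ranking among gene windows and the omission of both shortest lists (WT replicate 1 and Ern1-LKO replicate 1) were chosen after seeing the data. No paired analysis was possible because the results come from no test. The Brdt peaks held 12 to 20 tags, and the libraries without one had 4340956 to 17399899 kept tags.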
